A study of Homo sapiens with 5 samples.

Results

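The TRIM and RNF genes were the rows of a gene-level footprint table whose symbol begins with TRIM or RNF followed by a number. The pattern matched 142 of 17297 genes, 60 TRIM and 82 RNF genes, and the pattern uses no measured value. It took in 3 readthrough names (RNF103-CHMP3, TRIM39-RPP21 and TRIM6-TRIM34), whose reads cannot be told apart from those of the genes they span. RING proteins of other names, such as RING1, PML or MDM2, fell outside the pattern.

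Most proteins of both families are ubiquitin ligases. Their RING, a zinc-binding fold, holds a ubiquitin-loaded conjugating enzyme next to a substrate, and the ubiquitin passed on can send the substrate to the proteasome or change its partners. TRIM proteins carry a RING, B-boxes and a coiled coil followed by a variable end that often binds the substrate, and many act in antiviral defence or transcription. RNF is a naming label rather than one lineage, and its members work on chromatin, at DNA breaks, on ribosomes, in membranes and in immune signalling.

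Ribosome-protected fragments (footprints), the stretches of mRNA that ribosomes shield from nuclease, were measured in HCT116, a human colorectal carcinoma line. The MUT group was 3 libraries of eIF6-N106S cells, homozygous for an asparagine-to-serine change introduced by CRISPR/Cas9, and the WT group was 2 libraries of cells labelled Wt. eIF6 is a factor of the large ribosomal subunit that keeps it from joining the small one, and the series title places the mutation in the context of subunit sequestration, mitotic exit and cancer progression. Both groups were grown in the same medium to the same density and processed alike, with footprints taken from the monosome fraction after MNase digestion. The growth protocol speaks of mutant clones in the plural, but how many were used, and whether each library had its own culture, is not stated. The p-values below therefore reflect variation from library to library, part or all of which may be technical. A difference may also belong to the clone rather than to the mutation, and the design cannot tell these apart.

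Library totals ran from 2095217 counts (WT replicate 1) to 3821176. Markers of colon epithelium were present in part. KRT8, KRT18 and KRT19 lay between 260 and 562 CPM in all libraries and the intestinal factor CDX2 between 23.5 and 32.9 CPM, while the intestinal genes VIL1 and CDX1 were below 1 CPM in each. The markers did not move one way: KRT8, KRT19 and CDX2 were higher in every MUT library than in both WT libraries. In contrast, EPCAM (48.8 to 65.0 CPM in MUT, 72.9 and 83.0 CPM in WT) and CDH1 (8.91 to 12.6 CPM in MUT, 21.5 and 20.9 CPM in WT) were lower in every MUT library. The part of these differences in the results was not tested. The summed level of the 11 epithelial markers was 1165 to 1474 CPM in MUT and 1099.9 to 1190.1 CPM in WT. The 6 fibroblast markers summed to 6.85 to 8.91 CPM in MUT and 7.52 to 8.99 CPM in WT, nearly all of it COL1A1, and the 3 leukocyte markers in the table summed to at most 1.32 CPM in MUT and 0.327 CPM in WT. The 3 endothelial markers in the table summed to 1.32 to 1.91 CPM in MUT and 1.63 to 5.49 CPM in WT.

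CPM here are counts scaled to the TMM-adjusted library size, an adjustment that assumes that most genes do not change. All fold changes are MUT over WT unless the sentence says otherwise, and a gene passed the test at an adjusted p under 0.05 in edgeR's quasi-likelihood test over all genes. A footprint count reflects how many ribosomes sat on a gene's mRNAs. It does not separate more mRNA from more ribosomes per mRNA, nor a change in every cell from a change in the share of cells that express the gene.

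Footprints on most ligase genes differed little between the groups. Of the 142 genes, 106 had enough counts to be tested, and the other 36 held between 1 and 33 counts over all 5 libraries together. Most of the untested genes were SPRY-domain TRIM genes (19 tested of 27) and RNF genes outside the role groups below (27 tested of 40). Among the 106, 8 were higher and 8 lower in MUT, or 7.55% in each direction, where 10.0% of all 11991 genes tested were higher and 12.9% lower. In either direction 15.1% of the ligase genes were called, against 22.9% of all genes. At an unadjusted p under 0.05 there were 29 ligase genes. With TMM scaling the share called was thus below the background in each direction. For falls it was below in every alternative fit described later. For rises it was above with upper-quartile scaling (15 of 106 ligase genes, 1558 of 11991 genes). It was also above with unadjusted library sizes (16 and 1756), with DESeq2 (6 and 610) and without MUT replicate 1. In the other alternative fits it was below. Of the called ligase genes 15 were among the 72 tested with a mean of at least 30 CPM. Shares were not compared at matched level, and no test compared the families with other genes.

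Their median log2 fold change was 0.06, beside 0.0024 over all genes tested. Of the 106, 93 lay between -0.5 and 0.5, and the share of all genes within these bounds was not counted. The called genes were a median 1.47-fold higher or 1.30-fold lower, and 1 of them (TRIM62) changed at least 2-fold. For 34 ligase genes all MUT libraries lay above all WT libraries, and for 18 all lay below, together 49.1% of those tested. The same was true of 25.4% of all genes above, 25.3% below and 50.7% in either direction. TRIM genes contributed 2 higher and 2 lower calls among 41 tested (9.76%), and RNF genes 6 and 6 among 65 (18.5%), both below the 22.9% of all genes. The split of 8 higher and 8 lower depended on the scaling. Upper-quartile factors gave 15 and 5, and unadjusted library sizes 16 and 4, so the balance of rises and falls among ligase genes is undecided here. The median of all genes moved to 0.05 and 0.07 under these scalings, and that of the ligase genes to 0.11 and 0.14.

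The families together took 0.730%, 0.738% and 0.747% of all counts in MUT replicates 1, 2 and 3, against 0.710% and 0.705% in WT replicates 1 and 2. The 3 MUT shares lay above both WT shares. They are shares of unadjusted totals, and with unadjusted library sizes the median log2 fold change of all genes was itself 0.07, beside 0.14 for the ligase genes. How much of the difference in shares belongs to that general shift was not tested. In WT replicate 1, the smallest library, the exact 95% binomial interval of the share was 0.698% to 0.721%, which covers counting error only.

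**Figure D1:**
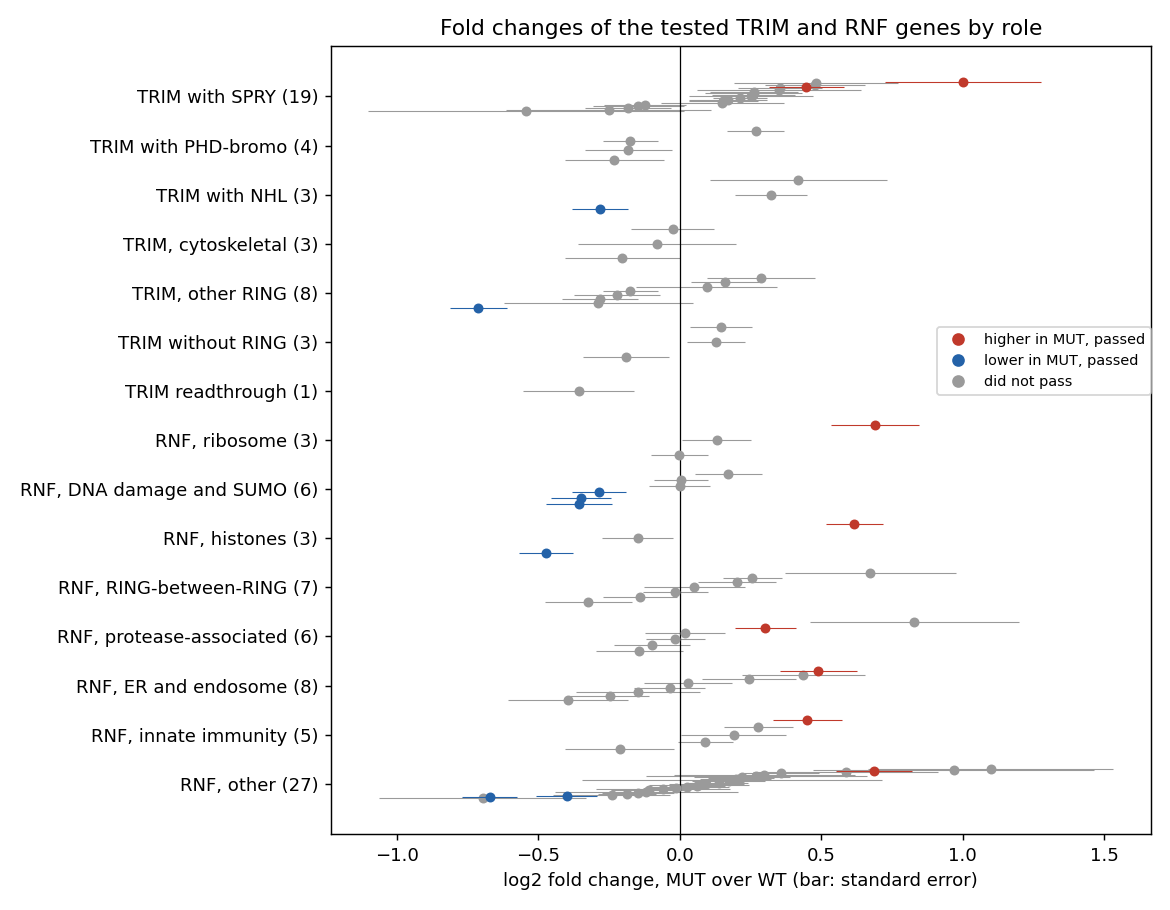
log2 fold change (MUT over WT, horizontal axis) of the 106 tested TRIM and RNF genes, 1 point per gene with its standard error, arranged by role with the number tested in parentheses. Red points passed the test as higher in MUT (8), blue as lower (8) and grey did not pass (90). Most points lie near 0, and called genes of opposite sign stand within the histone group.

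Of the 16 called genes, 5 also passed in all 14 alternative fits, which used other scalings, tools or count filters, left out each library in turn, or added the replicate number: TRIM59, RNF141 and RNF2 fell, and RNF40 and RNF182 rose. Because the account turns on these genes, the 150 bases before the start of each are shown, from RefSeq (GRCh38.p14), 5′ to 3′ on the strand of the gene. Capitals mark matches, on either strand, to CCAAT (the box of NF-Y), to GGGCGG (SP factors), to CCGGAAG (ETS factors), to TATAAA (the TATA box), to CACGTG (an E-box) or to GAAA followed, after 2 bases of any kind, by GAAA (the core of interferon response elements). The stretches are chr3:160449787-160449936 (minus strand), chr11:10541188-10541337 (minus), chr1:185045408-185045557 (plus), chr16:30761462-30761611 (plus) and chr6:13924296-13924445 (plus), in the order printed.
TRIM59: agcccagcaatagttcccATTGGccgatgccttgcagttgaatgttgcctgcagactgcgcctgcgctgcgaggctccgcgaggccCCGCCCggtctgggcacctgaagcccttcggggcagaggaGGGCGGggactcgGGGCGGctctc
RNF141: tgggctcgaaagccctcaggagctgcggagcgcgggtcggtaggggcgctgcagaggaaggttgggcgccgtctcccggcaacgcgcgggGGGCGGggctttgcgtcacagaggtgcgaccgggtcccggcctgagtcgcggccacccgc
RNF2: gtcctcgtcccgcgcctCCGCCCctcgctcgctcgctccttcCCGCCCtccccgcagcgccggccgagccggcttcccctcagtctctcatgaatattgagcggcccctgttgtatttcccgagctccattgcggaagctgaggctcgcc
RNF40: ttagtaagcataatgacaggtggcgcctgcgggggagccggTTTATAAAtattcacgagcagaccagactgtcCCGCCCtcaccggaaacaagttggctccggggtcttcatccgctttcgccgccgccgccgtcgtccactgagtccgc
RNF182: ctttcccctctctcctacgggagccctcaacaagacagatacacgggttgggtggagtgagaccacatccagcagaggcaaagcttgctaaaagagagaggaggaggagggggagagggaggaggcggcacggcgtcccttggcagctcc

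GGGCGG occurred 3 times before TRIM59, 2 times before RNF2, once before RNF141 and once before RNF40, and not in the RNF182 stretch. TRIM59 also held CCAAT, and RNF40 held TATAAA on both strands in overlapping letters. The RNF182 stretch had 5 CG pairs, against 12 to 20 in the others. Of the 142 genes 116 matched a RefSeq stretch, and 59 of these (50.9%) held GGGCGG in the 150 bases, as did 36.7% of all 27303 promoters in the table. The interferon response letters occurred in 6 of the 116 (5.17%), before TRIM5, TRIM14, TRIM16, TRIM34, TRIM44 and TRIM69, and in 1.79% of all promoters. CCAAT was found in 29.3% and 24.4%, CCGGAAG in 7.76% and 7.18%, TATAAA in 5.17% and 7.05%, and CACGTG in 5.17% and 4.68%, of the matched ligase genes and of all promoters in turn. All ligase genes are listed as protein-coding, while the promoters they are set beside were not selected by gene type, so the 2 sets may differ in kind. A match says that the letters are present, not that a factor binds. Among the 5 genes shown, GGGCGG stood before 3 that fell and 1 that rose.

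TRIM59, a TRIM protein anchored in membranes, had the lowest fold change of all 106. Its footprints were 108, 129 and 112 CPM in MUT replicates 1 to 3, against 179 and 201 CPM in WT replicates 1 and 2. All MUT libraries lay below both WT libraries by a wide gap. TRIM59 was 1.64-fold lower, with a log2 fold change of -0.71 (SE 0.101) and an adjusted p of 2.76e-05 in edgeR. It lies on chromosome 3 at 160435503 to 160449786 and shares its position with the readthrough locus TRIM59-IFT80.

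RNF141, a RING protein known mainly from testis, had 363, 312 and 351 CPM in MUT libraries, against 565 and 526 CPM in WT libraries. Again the groups did not overlap. Its log2 fold change was -0.67 (SE 0.0958), 1.59-fold lower, with an edgeR adjusted p of 2.86e-05. The gene spans 10511673 to 10541187 on chromosome 11 and overlaps no other gene of the RefSeq table.

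Histone ligases moved in opposite directions. RNF2, the catalytic subunit of the Polycomb repressive complex that places ubiquitin on histone H2A, had 130, 122 and 133 CPM in MUT and 183 and 173 CPM in WT. All MUT libraries were lower, 1.39-fold on average (log2 fold change -0.47, SE 0.0952, edgeR adjusted p 0.00104). RNF40 and RNF20 form the pair that ubiquitinates histone H2B during transcription. RNF40 had 190, 179 and 170 CPM in MUT and 116 and 118 CPM in WT, 1.53-fold higher (log2 fold change 0.62, SE 0.0997, edgeR adjusted p 0.000113). The 5 RNF40 values formed well separated groups. Its partner RNF20 had 59.5, 75.8 and 67.7 CPM in MUT and 75.9 and 74.9 CPM in WT, with a log2 fold change of -0.15 that did not pass (adjusted p 0.413). No test compared the 2 H2B ligases with each other. RNF2 has a pseudogene copy, RNF2P1, and RNF40 overlaps the coding gene CFAP119, so some of its reads could belong to that gene.

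RNF182, a membrane ligase described in neurons, had 65.5, 62.1 and 62.9 CPM in MUT and 41.0 and 38.3 CPM in WT. Values within each group were close. It was 1.61-fold higher, with a log2 fold change of 0.69 (SE 0.135) and an edgeR adjusted p of 0.000864.

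**Figure D2:**
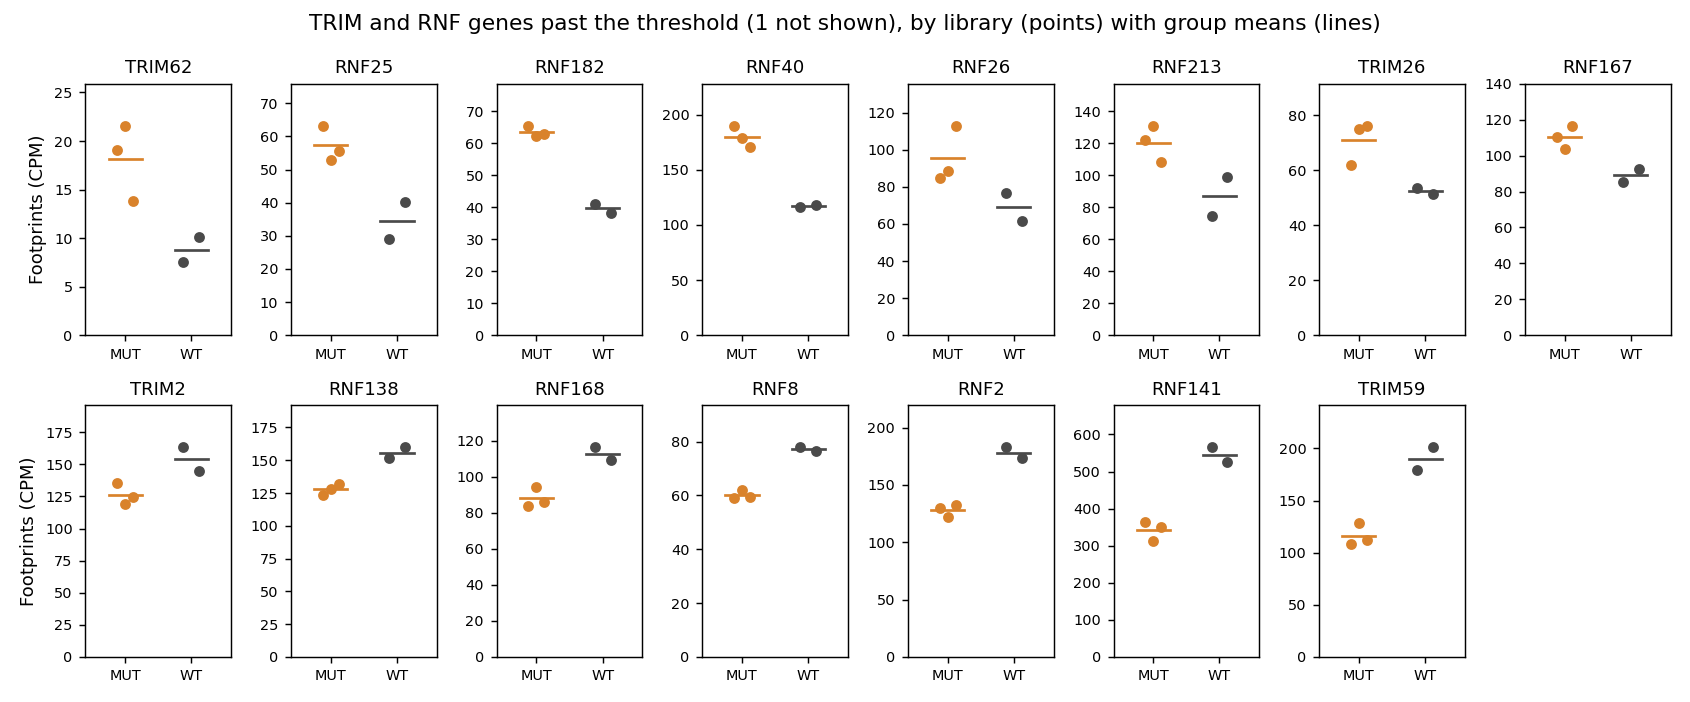
Footprints in CPM (vertical axes, each from 0) of 15 of the 16 called TRIM and RNF genes, with MUT libraries left of WT libraries in each panel. Points are libraries and lines are group means, and genes run from the highest log2 fold change (TRIM62) to the lowest (TRIM59). No panel has overlapping groups, but the genes were selected by a test on these same libraries. Of all genes tested 50.7% had groups that did not overlap.

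Among the ligases that act on ribosomes, RNF25 rose. RNF25 and RNF14 act together when translation factors block the ribosome's decoding site, and RNF10 ubiquitinates small-subunit proteins of stalled ribosomes. RNF25 had 63.3, 52.9 and 55.7 CPM in MUT and 29.0 and 40.2 CPM in WT, 1.61-fold higher (log2 fold change 0.69, SE 0.155, edgeR adjusted p 0.00249). WT replicate 1 was its lowest library, and without that library the adjusted p was 0.0638. RNF14 had 76.3, 89.3 and 83.4 CPM in MUT and 68.4 and 82.1 CPM in WT, overlapping ranges with a log2 fold change of 0.13 (adjusted p 0.467). For RNF10 the libraries held 187, 181 and 203 CPM in MUT and 211 and 173 CPM in WT. Its groups overlapped fully (log2 fold change -0.0023, SE 0.101), and with upper-quartile scaling or unadjusted library sizes the sign was positive (0.043 and 0.072).

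Of 25 other genes that mark, sense or clear stalled ribosomes, 3 rose and 1 fell, or 16.0%, beside 22.9% of all genes. PELO, which splits stalled ribosomes, averaged 97.5 ± 5.89 CPM in MUT and 64.4 ± 3.63 CPM in WT (SD, n = 3 and n = 2). GCN1, a sensor of collided ribosomes that works with RNF14 and RNF25, averaged 146 ± 18.9 CPM in MUT and 99.1 ± 10.2 CPM in WT. ASCC2, a subunit of the complex that takes collided ribosomes apart, averaged 109 ± 6.37 CPM in MUT and 77.2 ± 5.42 CPM in WT. The 3 rises passed in every alternative fit (edgeR adjusted p 0.000773, 0.00149 and 0.00306). PELO lies within ITGA1, so its reads may not all be its own. The 1 fall, MAP3K20, was lost without MUT replicate 1, while 2 genes fell without MUT replicate 2. ZNF598, the ligase that first marks collided ribosomes, was among the genes that did not pass.

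Of 6 ligases of DNA breaks and SUMO-marked chromatin, 3 fell and 0 rose, where 12.9% of all genes fell and 10.0% rose. RNF8 and RNF168 build the ubiquitin chains on histones that recruit repair proteins to a break, and RNF138 promotes the trimming of break ends. RNF168 had 83.7, 94.5 and 86.2 CPM in MUT and 116 and 109 CPM in WT, and RNF8 had 59.2, 62.1 and 59.3 CPM in MUT and 77.9 and 76.5 CPM in WT. RNF138 had 123, 128 and 132 CPM in MUT and 152 and 160 CPM in WT. In all 3 genes every MUT library was below both WT libraries, by 1.27-fold, 1.28-fold and 1.22-fold on average. The edgeR adjusted p values were 0.0202, 0.0309 and 0.032. The other 3 of this group did not pass, with RNF4, RNF111 and RNF169 at log2 fold changes from -0.00012 to 0.17.

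These calls were small and close to the threshold, and RNF138 has pseudogene copies (RNF138P1 and RNF138P2). None of the 3 passed with DESeq2 (0.0759 for RNF168, 0.121 for RNF8 and 0.105 for RNF138) or with unadjusted library sizes (0.0613, 0.0833 and 0.107), and RNF8 and RNF138 also missed it with upper-quartile scaling (0.0569 and 0.0672) and with no count filter (0.054 and 0.0571). RNF168 did not pass without WT replicate 1 (0.114), WT replicate 2 (0.0811) or MUT replicate 1 (0.0882). RNF8 did not pass without WT replicate 1 (0.103), WT replicate 2 (0.14), MUT replicate 1 (0.0926) or MUT replicate 3 (0.0592), nor RNF138 without WT replicate 1 (0.0574), WT replicate 2 (0.22), MUT replicate 1 (0.12) or MUT replicate 2 (0.0691).

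Among 18 partners in this pathway 8 fell and 2 rose, or 55.6%, against 22.9% of all genes. The median log2 fold change was -0.21, beside 0.0024 over all genes. RFWD3, a ligase of replication forks, averaged 147 ± 9.94 CPM in MUT and 216 ± 26.1 CPM in WT (SD, n = 3 and n = 2). ABRAXAS1, the scaffold that ties BRCA1 to ubiquitinated chromatin, averaged 43.2 ± 3.18 CPM in MUT and 65.7 ± 0.439 CPM in WT. UBE2V2, which pairs with the conjugating enzyme UBE2N, averaged 201 ± 2.76 CPM in MUT and 266 ± 13.8 CPM in WT. Each of these was lower in every MUT library and passed in every alternative fit (edgeR adjusted p 0.000414, 0.00201 and 0.00221). UBE2N, BRCA1, BARD1, RIF1 and PAXIP1 were the other genes that fell, and BABAM1 and MDC1, the adaptor that brings RNF8 to breaks, rose; these 7 were named after their values were seen. The list had 5 falls and 0 rises with DESeq2 or when MUT replicate 1 was left out, and 5 falls and 3 rises with unadjusted library sizes. Leaving out WT replicate 1 gave 6 falls and 1 rise, WT replicate 2 gave 4 and 1, and MUT replicate 2 or 3 gave 7 and 1. Without MUT replicate 2 or 3 the share of the list was 44.4%, against 19.7% and 20.4% of all genes. ABRAXAS1 overlaps MRPS18C and has 2 pseudogene copies.

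Of 28 genes of Polycomb complexes, the PAF complex and the H2B conjugating enzymes, 3 rose and 2 fell, or 17.9%, against 22.9% of all genes. UBE2B, a conjugating enzyme used by RNF20 and RNF40, averaged 122 ± 7.98 CPM in MUT and 171 ± 14.5 CPM in WT (SD, n = 3 and n = 2), with an edgeR adjusted p of 0.00109 that was above the threshold without WT replicate 2. BMI1, a Polycomb partner of RNF2, had a log2 fold change of 1.47 at a low level, 9.83 ± 1.93 CPM in MUT and 3.46 ± 0.655 CPM in WT. Its call was lost when either WT replicate was left out, and it shares its position with the readthrough COMMD3-BMI1. BCORL1, a co-repressor found in such complexes, rose 1.28-fold and lost its call with DESeq2 or when WT replicate 1 or MUT replicate 1 was left out. In the list 0 genes rose and 2 fell without WT replicate 1, 1 rose and 0 fell without WT replicate 2, 1 rose and 1 fell without MUT replicate 1 or with DESeq2, 2 rose and 2 fell without MUT replicate 2, and 4 rose and 3 fell without MUT replicate 3. UBE2B overlaps CDKL3.

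SPRY-domain TRIM proteins include many antiviral factors. Of 19 tested, 2 rose and 0 fell, or 10.5%, against 22.9% of all genes, and 14 had a log2 fold change above 0, where all genes had 6031 of 11991 above 0. For 11 of them all MUT libraries lay above both WT libraries, and for 0 below, where all genes had 25.4% above and 25.3% below. Their median log2 fold change was 0.25. TRIM62, a ligase linked to epithelial polarity, had 19.1, 21.6 and 13.9 CPM in MUT and 7.49 and 10.1 CPM in WT. It had the largest fold among the called genes, 2.00-fold higher (SE 0.276 on the log2 scale, edgeR adjusted p 0.0107), at a low count of 15 and 31 reads in the WT libraries. The call was lost without WT replicate 1 (0.104) or WT replicate 2 (0.0543), and the gene overlaps AZIN2 and ZNF362.

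TRIM26, a regulator of interferon signalling encoded in the MHC region of chromosome 6 (30184455 to 30213406), had 62.0, 74.8 and 76.2 CPM in MUT and 53.4 and 51.3 CPM in WT. All MUT libraries were higher, 1.36-fold on average (log2 fold change 0.45, SE 0.132, edgeR adjusted p 0.0167). It did not pass with DESeq2 (0.0704), nor without WT replicate 1 (0.0672), WT replicate 2 (0.146) or MUT replicate 3 (0.0501). With either WT library left out, 0 SPRY genes were called, while 5 were called with upper-quartile scaling or unadjusted library sizes, and 1 with DESeq2 or without MUT replicate 3. TRIM7, TRIM47 and TRIM25 did not pass, and were named after their values were seen. TRIM7 lay just outside, with an edgeR adjusted p of 0.0518, and TRIM47 had 0.0836. TRIM25, the ligase that helps the RNA sensor RIG-I to signal, had 183, 183 and 179 CPM in MUT and 159 and 155 CPM in WT, with separate groups and a log2 fold change of 0.21 (adjusted p 0.104).

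Among 5 RNF ligases of innate immunity 1 rose and 0 fell, or 20.0% called, close to the 22.9% of all genes. RNF213, a very large ligase with ATPase modules known from moyamoya disease and from defence against bacteria and viruses, had 122, 131 and 108 CPM in MUT and 74.4 and 99.1 CPM in WT. The groups did not overlap, though the WT libraries differed from each other by more than the MUT libraries did. Its log2 fold change was 0.45 (SE 0.121), with an edgeR adjusted p of 0.00911 and of 0.186 without WT replicate 1. RNF213 overlaps its antisense gene RNF213-AS1. RNF114, RNF125, RNF135 and RNF166 did not pass, with log2 fold changes from -0.21 to 0.28.

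Genes of antiviral sensing gave 2 rises and 1 fall among 16 tested, or 18.8%, against 22.9% of all genes. TANK, an adaptor of the kinases that activate interferon genes, fell to 89.4 ± 7.56 CPM in MUT, against 167 ± 21.9 CPM in WT (SD, n = 3 and n = 2), with a log2 fold change of -0.89 and an edgeR adjusted p of 3.39e-06 that held in every alternative fit. IKBKE, one of those kinases, was 2.52-fold higher at 8.01 ± 1.43 CPM in MUT and 3.31 ± 0.976 CPM in WT (adjusted p 0.0262). TRAF2, an adaptor with a RING, averaged 30.7 ± 3.72 CPM in MUT and 21.4 ± 1.24 CPM in WT (0.0497). Neither rise passed with DESeq2 or when either WT replicate was left out. IKBKE was also lost without MUT replicate 2 or 3, and TRAF2 without MUT replicate 1 or 2, with RLE scaling and with limma-voom. The list held 0 rises and 1 fall with either WT library left out, with MUT replicate 2 left out and with DESeq2, and 1 and 1 with MUT replicate 1 or 3 left out. TANK overlaps the antisense gene TANK-AS1.

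Of 17 genes of linear ubiquitin chains and NF-kB activation, 3 rose and 1 fell, or 23.5%, close to the 22.9% of all genes. TNIP1, a ubiquitin-binding inhibitor of NF-kB, averaged 64.1 ± 5.06 CPM in MUT and 41.5 ± 0.0507 CPM in WT (SD, n = 3 and n = 2), with an edgeR adjusted p of 0.00211. TAB1, an activator of the kinase MAP3K7, rose 1.57-fold (0.0196), and MAP3K7 fell 1.2-fold (0.0456). TAB1 was lost with DESeq2 and when either WT library or MUT replicate 3 was left out, and MAP3K7 whenever any one library was left out. The list had 1 rise and 0 falls when either WT library or MUT replicate 3 was left out or DESeq2 was used, 2 and 0 when MUT replicate 1 was left out, and 3 and 0 when MUT replicate 2 was. It had 5 rises with upper-quartile scaling and 6 with unadjusted library sizes. RNF31, the catalytic subunit of the linear chain complex, had a log2 fold change of 0.05 (adjusted p 0.865), and was named after its value was seen.

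Of the TRIM proteins with PHD and bromodomains, which read histone marks, 0 of 4 passed in edgeR, where 22.9% of all genes did. Of the 4, 1 had an unadjusted p under 0.05 (limma-voom called 1 and DESeq2 0). TRIM28, the co-repressor of KRAB zinc finger proteins, had 423, 468 and 390 CPM in MUT and 371 and 340 CPM in WT. All MUT libraries were higher, by a log2 fold change of 0.27 (SE 0.1), and the edgeR adjusted p of 0.0544 lay just above the threshold. It passed in 8 of the alternative fits, among them upper-quartile scaling (0.0273), limma-voom (0.0457) and the fit without MUT replicate 3 (0.0329). TRIM33, a SMAD pathway regulator, had 167, 183 and 199 CPM in MUT and 210 and 204 CPM in WT (log2 fold change -0.18, adjusted p 0.199).

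Of 14 TRIM28 partners, namely genes of heterochromatin and of the HUSH and NuRD complexes, 2 rose and 5 fell, 7 of 14 where 22.9% of all genes were called. CBX3, a heterochromatin protein, averaged 370 ± 16.8 CPM in MUT and 568 ± 22.2 CPM in WT (SD, n = 3 and n = 2). MORC2, a HUSH effector, averaged 45.8 ± 3.76 CPM in MUT and 22.9 ± 2.86 CPM in WT, and ATF7IP, the partner of the methyltransferase SETDB1, averaged 147 ± 12.5 CPM in MUT and 202 ± 18.5 CPM in WT. The edgeR adjusted p values were 5.15e-05, 0.000159 and 0.00159, and ATF7IP lost its call without WT replicate 2. Without that library 1 gene of the list rose and 1 fell. CBX3 has 10 pseudogene copies in the RefSeq table, so its count is uncertain.

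The remaining TRIM groups held 2 calls, 1 among 3 tested genes with an NHL domain and 1 among 8 others with a RING. The 3 cytoskeletal genes, the 3 without a RING and the 1 readthrough gene tested had 0. Over all genes 22.9% were called. TRIM2, a TRIM with an NHL domain that acts on neurofilament protein, had 136, 119 and 124 CPM in MUT and 163 and 145 CPM in WT. Its MUT libraries were lower, 1.22-fold on average, with an edgeR adjusted p of 0.0434. That call did not survive the loss of any library (0.256 and 0.0713 without WT replicates 1 and 2; 0.0573, 0.141 and 0.0803 without MUT replicates 1, 2 and 3), nor the use of DESeq2 (0.129), upper-quartile scaling (0.0903), unadjusted library sizes (0.132) or no count filter (0.0628). TRIM59, described above, was the other call. TRIM37, a ligase that limits centrosome assembly, had 180, 191 and 204 CPM in MUT and 233 and 202 CPM in WT, ranges that overlapped, with a log2 fold change of -0.18 (adjusted p 0.201). The muscle and neuronal genes TRIM55 and TRIM9, at log2 fold changes of -0.20 and -0.08, and TRIM14 and TRIM16, which lack a RING, at 0.15 and -0.19, did not pass either. The readthrough TRIM39-RPP21 had a log2 fold change of -0.36 (adjusted p 0.194).

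Besides RNF182, the membrane ligases RNF26 and RNF167 rose. RNF26, an ER ligase that positions endosomes, had 84.9, 88.5 and 113 CPM in MUT and 76.9 and 61.5 CPM in WT. MUT replicate 3 was the highest library. The log2 fold change was 0.49 (SE 0.136, edgeR adjusted p 0.0114), and the adjusted p was 0.272 when WT replicate 2, and 0.063 when MUT replicate 3, was left out. The other 7 ER genes tested did not pass, with log2 fold changes from -0.40 to 0.44. Of the 8 ER genes tested 12.5% were thus called, against 22.9% of all genes.

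RNF167, an endosomal and lysosomal ligase with a protease-associated domain, had 110, 103 and 117 CPM in MUT and 85.4 and 92.5 CPM in WT, 1.23-fold higher (edgeR adjusted p 0.045). It missed the threshold without WT replicate 1 (0.218), WT replicate 2 (0.109), MUT replicate 1 (0.11) or MUT replicate 3 (0.109), and with DESeq2 (0.143), limma-voom (0.0574) and no count filter (0.0507). RNF43, which removes WNT receptors from the surface of intestinal cells and was named after its value was seen, had 126, 106 and 128 CPM in MUT and 122 and 120 CPM in WT. Its ranges overlapped and its log2 fold change was -0.02 (SE 0.106).

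Of 24 genes of ER degradation 5 rose and 3 fell, or 33.3%, against 22.9% of all genes. AUP1, a membrane protein that recruits a conjugating enzyme, averaged 62.1 ± 7.33 CPM in MUT and 33.2 ± 0.274 CPM in WT (SD, n = 3 and n = 2), and NPLOC4, a cofactor of the VCP segregase, averaged 286 ± 5.13 CPM in MUT and 197 ± 16.8 CPM in WT. Both were higher in every fit (edgeR adjusted p 0.000157 and 0.000284). UBE2J1, an ER conjugating enzyme, averaged 145 ± 11.6 CPM in MUT and 207 ± 36.4 CPM in WT (0.00185) and was lost without WT replicate 1. AUP1 overlaps HTRA2. The list had 1 fall when WT replicate 1 or MUT replicate 1 was left out, and with DESeq2 or unadjusted library sizes, and 2 when WT replicate 2 was left out.

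No ligase with a RING-between-RING arrangement passed among 7 tested by edgeR, with 3 at an unadjusted p under 0.05 (limma-voom and DESeq2 also called 0). Of all genes 22.9% passed in edgeR. RNF216 had 112, 116 and 107 CPM in MUT and 94.4 and 92.5 CPM in WT, groups that did not overlap, with a log2 fold change of 0.26 (adjusted p 0.0797). Upper-quartile scaling (0.0385) and unadjusted library sizes (0.0258) brought it past the threshold. RNF144B had 9.86, 13.4 and 13.3 CPM in MUT and 7.49 and 7.85 CPM in WT, also separate (log2 fold change 0.67, SE 0.301, adjusted p 0.108).

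Among 27 other RNF genes tested 1 rose and 2 fell, RNF182 and RNF141, described above, among them. That is 11.1%, against 22.9% of all genes. RNF11, a partner of the NF-kB inhibitor TNFAIP3, had 180, 203 and 235 CPM in MUT and 232 and 238 CPM in WT (log2 fold change -0.19, adjusted p 0.202), where MUT replicate 3 reached the WT range. It passed without MUT replicate 3 (0.0475). RNF32, also named after its value was seen, had the highest log2 fold change of the ligases, 1.10, with 8.59, 5.00 and 11.8 CPM in MUT and 3.50 and 4.25 CPM in WT (adjusted p 0.0686). RNF126, chosen in the same way, missed the threshold at 0.0505, with 60.4, 68.2 and 74.9 CPM in MUT and 51.9 and 53.9 CPM in WT.

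**Figure D3:**
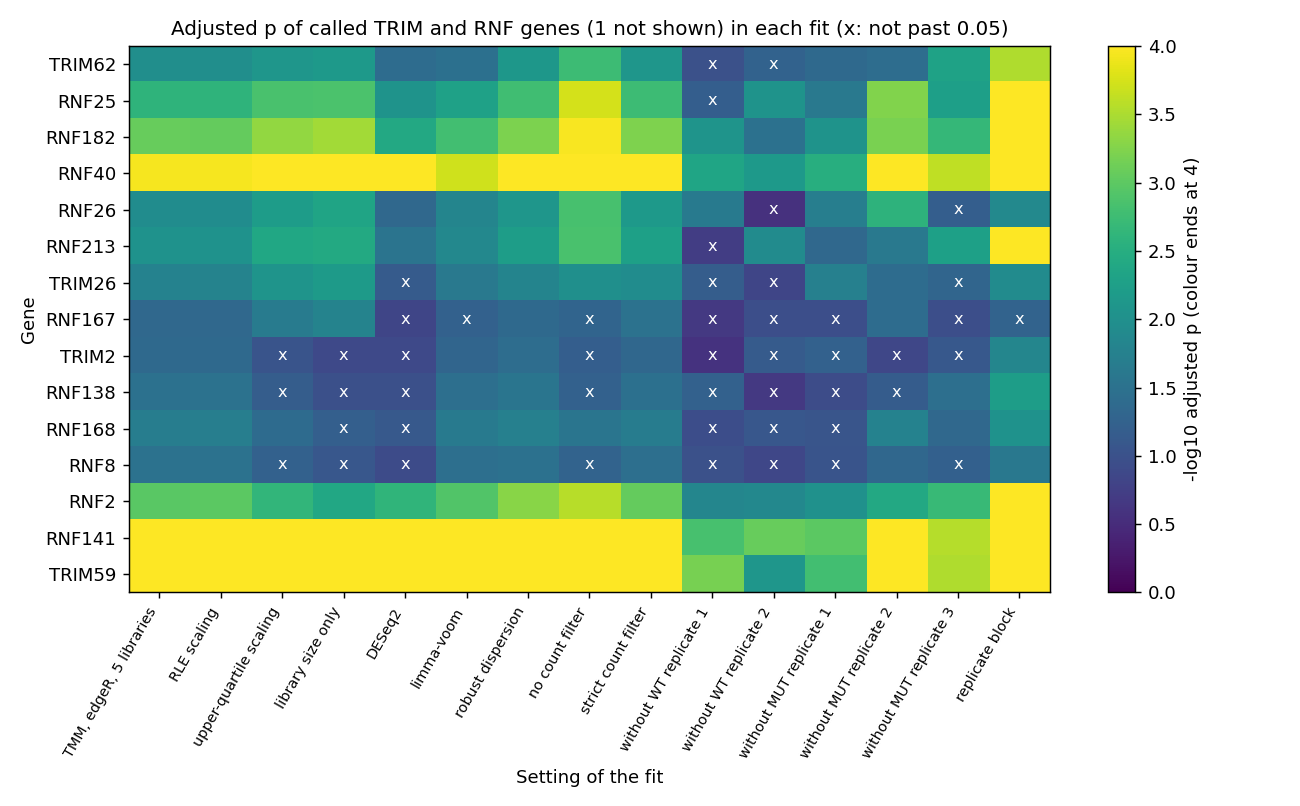
Adjusted p (colour, as -log10) of 15 of the 16 called TRIM and RNF genes (rows, from the highest to the lowest log2 fold change) in the fit with TMM scaling and 14 alternative fits (columns). A cross marks a fit in which the gene did not pass 0.05. RNF182, RNF40, RNF2, RNF141 and TRIM59 have no cross, and crosses gather in the columns that leave out a WT library.

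Beyond these families, 100 other proteins with a RING or a related fold were tested, of which 8 rose and 18 fell, or 26.0%. RFWD3, given above, RMND5A (170 ± 7.85 CPM in MUT and 230 ± 5.05 CPM in WT; SD, n = 3 and n = 2) and PHRF1 (44.2 ± 5.80 CPM in MUT and 23.5 ± 6.46 CPM in WT) had the lowest p values and passed in every fit. RMND5A overlaps RNF103-CHMP3. Upper-quartile scaling gave 13 rises and 11 falls, unadjusted library sizes 13 and 9, and DESeq2 5 and 6. Leaving out WT replicate 1 gave 4 and 7, WT replicate 2 gave 4 and 6, MUT replicate 1 gave 5 and 8, and MUT replicate 2 or 3 gave 9 and 11. With TMM scaling 15.1% of the TRIM and RNF genes and 26.0% of these were called, on either side of the 22.9% of all genes. That placement depended on the fit. With DESeq2 or unadjusted library sizes, the share of these other RING genes also lay below that of all genes. The same held without WT replicate 1, WT replicate 2, MUT replicate 1 or MUT replicate 3. In the other alternative fits it lay above. No test compared the shares.

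**Figure D4:**
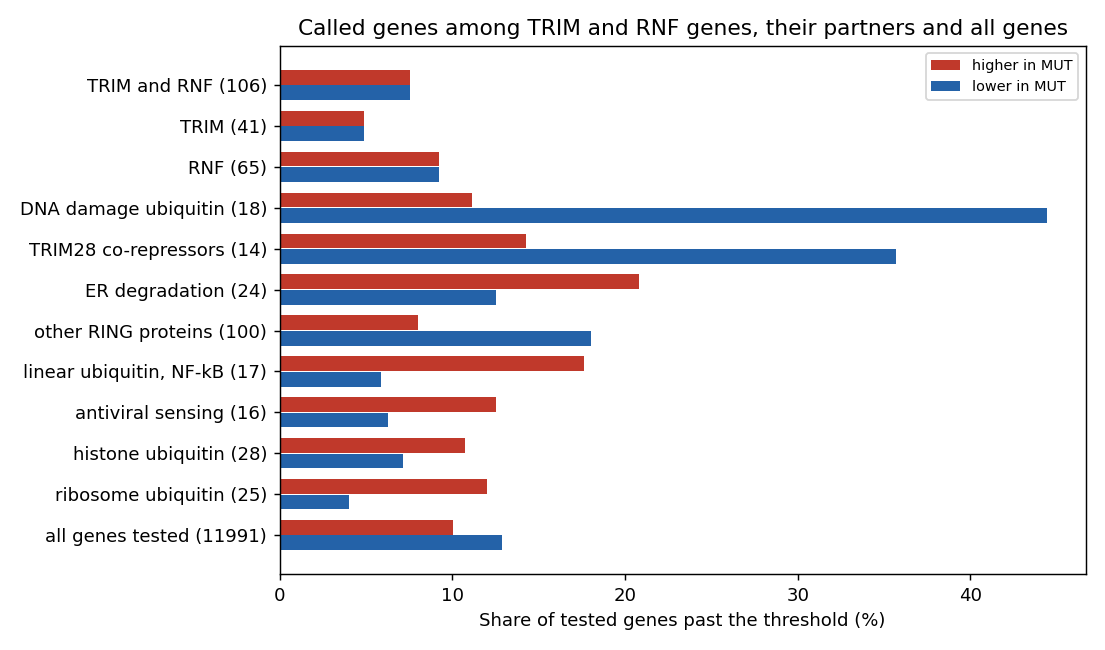
Share of tested genes past the threshold (horizontal axis, %), higher (red) and lower (blue) in MUT, for the TRIM and RNF genes, 8 partner lists and all genes, with the number tested in parentheses. TRIM and RNF genes stand at 7.55% in each direction, and all genes at 10.0% higher and 12.9% lower.

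Replicate spread of the ligase genes was summarized over the MUT libraries only, without a value for all genes beside it. For the 96 tested genes with a mean of at least 10 CPM, the coefficient of variation over the 3 MUT libraries had a median of 8.39% and ran from 1.32% to 33.9%. All 16 calls came from these genes. Among tested genes under 10 CPM the coefficient reached 70.8% (RNF152) and 40.2% (RNF32), while that of RNF128 was 8.60%. Across the 85 tested ligase genes with a RefSeq upstream stretch, Spearman's correlation of the log2 fold change with genomic span was -0.21, with the GC share of the 250 bases before the start -0.00051, and with the number of CG pairs there -0.08. Over 9868 genes the same values were -0.06, 0.10 and 0.04. These describe genes from shared libraries, which are not independent replicates.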

How the data were processed

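Ribosome profiling libraries of HCT116 cells were analysed, 3 MUT and 2 WT. The deposited values are raw counts of footprints per gene symbol, not normalized by the authors. The build was hg38, and the tools named were STAR 2.5.2b, DESeq2 1.42.0, FastQC 0.12.1 and cutadapt 4.6, per the submitters' processing notes. What counted the reads, on which annotation and strand, and with what treatment of multi-mapping reads, is not stated, so overlapping genes and near-identical copies are uncertain. RNA-seq was not analysed here. The count table's header lacks its first tab, so its 5 codes were read in order and matched to the sample descriptions.

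Counts were fitted in R 4.3.3 with edgeR 4.0.16 (filterByExpr with a minimum count of 10 and a total of 15, TMM scaling, quasi-likelihood F test, 3 residual degrees of freedom), with Benjamini-Hochberg adjustment over 11991 genes and a threshold of 0.05. Standard errors come from the F statistic. Alternatives were RLE, upper-quartile and no scaling factors, DESeq2 1.42.0, limma-voom (limma 3.58.1), robust dispersion, no count filter, a strict one (30 counts in 2 libraries and a mean of 10 CPM), each library left out, and the replicate number as a block. The test was checked on simulated counts. Small differences were mostly missed there: 14% of the genes given a 1.25-fold difference were recovered. For a 1.5-fold difference the recovered share was 68%, and a 2-fold difference brought it to 86%. Among the 141 simulated calls 9 were false. A gene that did not pass may therefore still differ by a small fold.

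The genes, role groups and 8 partner lists were chosen with earlier results of these data known, so lists are given as counts and medians. Named are, per role group, up to 6 called genes (8 for other RNF genes) with the lowest p, or up to 2 where none passed, the 6 genes with most footprints, the ribosome ligases, and up to 3 called genes per partner list. Gene bounds and sequences are RefSeq's (GRCh38.p14, the same chromosomes as hg38). The values of 1 called RNF gene are not reported here. Of the 142 symbols 141 matched and 1 (RNF165) matched as a synonym.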

Additional observations from a re-analysis of the deposited data

How the results depend on the processing

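Of the 29 named ligase genes and 23 named partner genes, 83 fits lost a call, 14 gained one and 620 left the direction and the side of the threshold as they were. Libraries decided most of the losses: 17 calls were lost without WT replicate 1, 15 without WT replicate 2, 9 without MUT replicate 1, 8 without MUT replicate 3 and 5 without MUT replicate 2. DESeq2 lost 11. The causes were not tested, beyond the smaller number of libraries in the fits that leave one out. Ligase genes called higher numbered 15 with upper-quartile scaling, 16 with library size only, 13 with the replicate block and 3 to 9 with a library left out. Those called lower numbered 5 with upper-quartile scaling or no count filter, 4 with library size only or DESeq2, and 3 to 7 with a library left out. For TRIM genes the higher calls were 7 with upper-quartile scaling or library size only, 4 with the strict count filter or the replicate block, 1 with DESeq2 and 0 to 3 with a library left out. The lower TRIM calls were 1 with upper-quartile scaling, library size only, DESeq2 or no count filter and 1 in each fit without a library. RNF genes called higher were 3 to 7, and lower 2 to 6, with a library left out, and the lower calls were 3 with library size only or DESeq2. The median log2 fold change of the ligase genes was 0.11 (upper-quartile scaling), 0.14 (library size only) and 0.03 to 0.09 (a library left out), while the median of all genes was 0.05 and 0.07 under those scalings. Over the 8 partner lists, 27 genes rose and 36 fell. Upper-quartile scaling turned this balance over, with 36 higher and 26 lower, as did library size only, with 39 and 21. DESeq2 gave 16 and 18, and fits without a library 14 to 26 higher and 14 to 29 lower; these alternatives for partner genes were chosen after seeing the data. RNF10, near 0, changed sign, with log2 fold changes of 0.043 (upper quartile), 0.072 (library size only), 0.0036 (limma-voom), 0.0079 (no count filter), 0.012 (strict filter) and -0.14 to 0.13 with a library left out, and TRIM9 ran from -0.37 to 0.18. Replicate numbers are shared by the groups, but no label says that a number marks a pairing, so it is not taken as one. Deviations of same-numbered libraries from their group means correlated at 0.0793 and 0.148. These 2 values are not independent, since the deviations of the 2 WT libraries mirror each other. They cannot exclude an effect shared by same-numbered libraries. Replicate number 3 occurs only in MUT, so with the block MUT replicate 3 has a term of its own and does not inform the contrast. That fit has fewer than 3 residual degrees of freedom and is close to the one without MUT replicate 3, so its further calls are not added support. With the replicate block 13 ligase genes were higher and 10 lower, or 21.7%. RNF167 was the only named gene to lose its call there (edgeR adjusted p 0.0527). The partner lists then had 40 higher and 41 lower, and the histone ubiquitin list 5 and 6 in place of 3 and 2, or 39.3%, where 28.7% of all genes were called in that fit.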
